A study of Mus musculus with 6 samples.

Results

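The enzymes that add or remove acetyl and methyl groups on histones were followed in mouse embryonic stem cells with and without Rbbp4. Members were the protein-coding genes whose GENCODE M21 symbol is Kat, Hdac, Sirt, Kdm, Kmt, Setd or Prmt followed by a number and at most one letter from a to e. The rule gave 68 genes of 52870 genes and assembled loci with values: 8 acetyltransferases (Kat), 18 deacetylases (11 Hdac, 7 Sirt), 18 demethylases (Kdm) and 24 methyltransferases (8 Kmt, 8 Setd, 8 Prmt). All 68 were present in the files. Of these, 66 had at least 1 FPKM (a fragment count relative to transcript length and to library size) in at least 3 of the 6 libraries and were tested.

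Control libraries (3) had the genotype Rbbp4F/F. Knockout libraries (3), titled Rbbp4KO, had the genotype Rbbp4-/-. Both groups were embryonic stem cells of the C57BL/6 strain, and libraries were made from total RNA. The labels name no Cre or inducing agent, no time after deletion and no passage, and they do not say whether the replicates of a group were separate cultures or clones. P-values therefore speak only of the spread among the libraries at hand, and that spread may be technical. The estimated depth was 25700000 to 28900000 fragments per library, at which 1 fragment on a transcript with an effective length of 5 kb is worth 0.00692 to 0.00778 FPKM.

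Acetylation of histone tails neutralises lysine charge and marks active promoters and enhancers, and deacetylases reverse it. Methylation of lysine and arginine works through the residue: methyl groups on H3 lysine 4 accompany active genes, those on H3 lysine 36 transcribed gene bodies, and those on H3 lysine 9, H3 lysine 27 and H4 lysine 20 mostly silent chromatin. Rbbp4 itself is a histone-binding subunit of deacetylase complexes built on Hdac1 and Hdac2, and the demethylase Kdm1a works with the same deacetylases in the CoREST complex. Membership of the symbol families does not make every product a histone enzyme: Sirt3, Sirt4 and Sirt5 are mitochondrial, Hdac6 acts on tubulin, Setd3 methylates actin, and Setd5 and Kmt2e have no agreed histone activity.

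Rbbp4 measured 58.5, 57.0 and 61.8 FPKM in the Rbbp4F/F libraries and 21.3, 12.7 and 11.1 FPKM in the Rbbp4-/- libraries, so each library matched its label while transcript remained. Which exons were removed is not stated. As a check of cell identity, 7 of 8 pluripotency markers fell, yet they remained well above the detection limit: their summed level was 4307 to 4439 FPKM with Rbbp4 and 1329 to 2108 FPKM without it. Of 10 trophoblast markers 8 rose, and their sum went from 122 to 184 FPKM up to 2220 to 4004 FPKM. That sum was mostly Krt8 (65.8 ± 17.7 to 1586 ± 478 FPKM) and Krt18 (55.5 ± 11.8 to 1575 ± 437 FPKM). Eomes and Elf5 were not called. Across all tested genes 36.7% were called higher and 22.5% lower. Cdx2 (mean 1.52 FPKM in knockouts) and Gata3 (5.17 FPKM) passed the filter through the knockout libraries only, where they are high, so they had to differ. The 10 markers of feeder fibroblasts summed to 13.1 to 19.4 and 10.6 to 11.4 FPKM, mostly Thy1, which fell. The other 9, all below the filter, summed to 1.13 to 1.49 FPKM in controls and 3.35 to 3.54 FPKM in knockouts, and 7 of them were higher in the knockout without overlap. Among all tested genes, which these 9 are not part of, groups did not overlap in 66.8%, in either direction. Postn and Lum were listed at 0 in all control libraries. The part of these marker changes in the results for histone enzymes was not tested. In bulk RNA, fewer cells of a type and less RNA per cell cannot be told apart.

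Counted over the whole set, the enzymes were called about as often as all tested genes, and nearly as many rose as fell. Of the 66 tested members, 18 rose and 19 fell at a limma adjusted p under 0.05, together 56.1% (37 members), while 59.1% of all 13579 tested genes were called, 36.7% higher and 22.5% lower. Called changes of at least 2-fold on the log2(FPKM + 1) scale were found in 6 members (9.09%), against 20.5% of all tested genes. One of these, Prmt8, passed the filter through the control libraries only, where it is high. Without it 18 of 65 members rose, 18 fell and 5 (7.69%) were called and changed by at least 2-fold. The shares of all tested genes still count genes that passed the filter through 1 group only. The groups did not overlap in 42 members (63.6%), against 66.8% of all tested genes. The median log2 fold change (knockout minus control) was 0.01, against 0.17 over all tested genes.

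The balance of directions moved with the scaling between libraries. Against 18 higher and 19 lower as deposited, median-ratio scaling gave 13 members higher and 27 lower. Upper-quartile scaling gave 10 higher and 29 lower, and equal FPKM sums gave 24 higher and 12 lower. The median over all tested genes moved to −0.01, −0.07 and 0.31 in these 3 settings. Counts over all tested genes moved the same way, from 4978 higher and 3051 lower of 13579 as deposited. They were 3838 higher and 3992 lower of 13540 with median-ratio scaling. Upper-quartile scaling gave 3453 and 4402 of 13555, and equal FPKM sums 6080 and 2380 of 13607. Of the 37 called members, 20 kept their call in every alternative that tested them, 9 higher and 11 lower. Those higher were Kat5, Kat7, Sirt7, Kdm6a, Setd2, Setd7, Kmt2a, Prmt2 and Prmt6. Those lower were Kat2a, Hdac1, Hdac3, Hdac4, Kdm1a, Kdm4a, Kdm4b, Kdm5b, Setd5 and Kmt5c, and Prmt8, whose entry into the test depended on its control level.

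**Figure D1:**
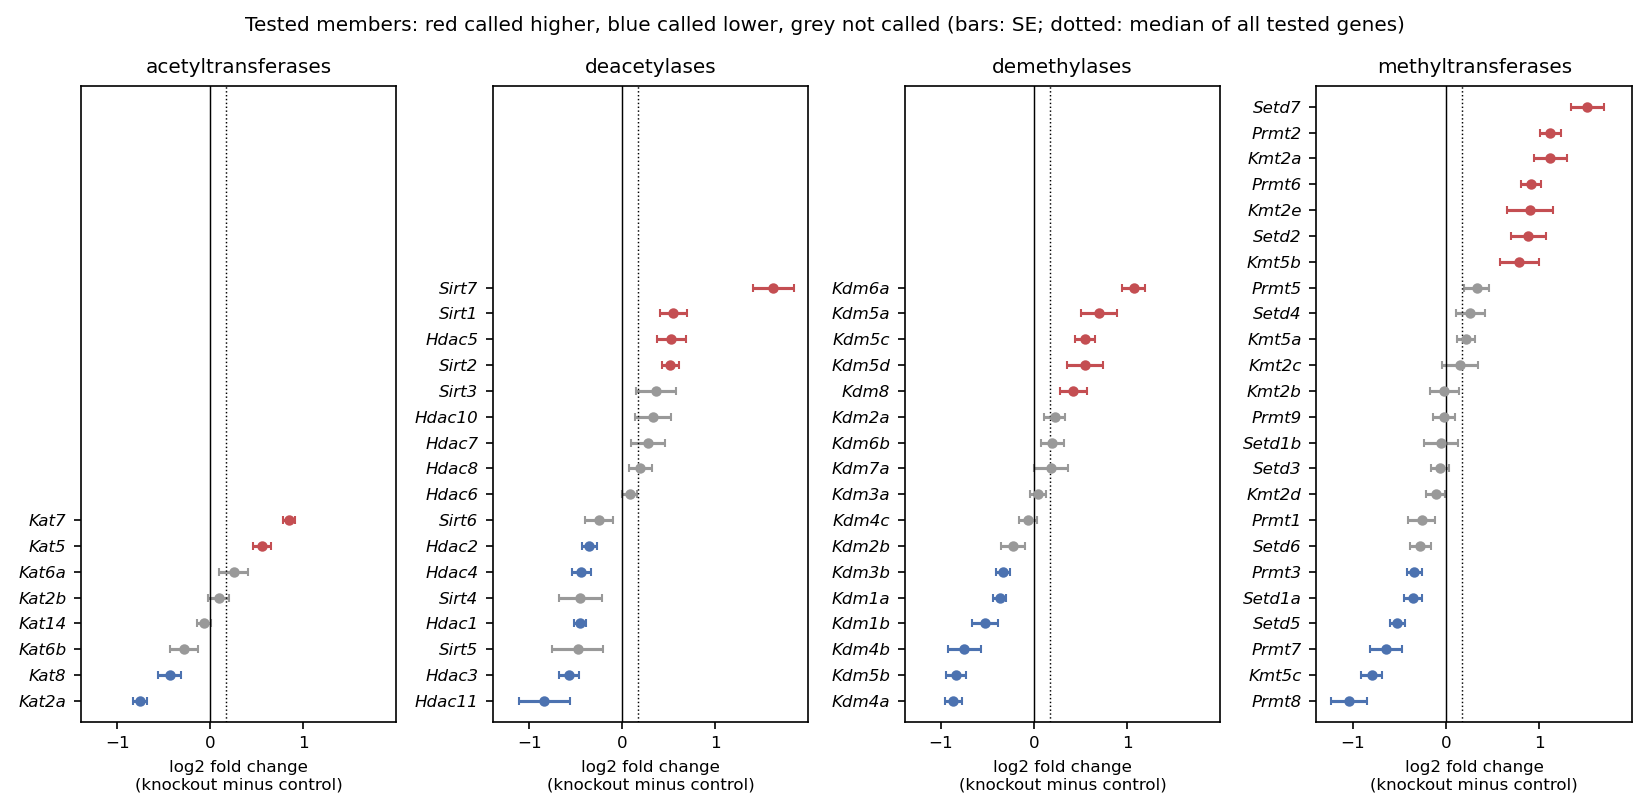
Log2 fold change (x axis, knockout minus control, on the log2(FPKM + 1) scale) of the 66 tested members, in a panel per class, with bars for the standard error. Red points were called higher, blue lower and grey not called; the dotted line is the median of all tested genes (0.17). Each class has points on both sides of 0, from −1.04 for Prmt8 to 1.62 for Sirt7.

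Of the 6 members that changed by at least 2-fold, 5 rose: Sirt7, Setd7, Prmt2, Kmt2a and Kdm6a. The proximal promoters of a pair of them, the X-linked H3 lysine 27 demethylase gene Kdm6a and the arginine methyltransferase gene Prmt2, are shown because both rose by more than 2-fold and no annotated exon covers the 250 bases before their start. Capitals mark the motifs searched on both strands. They were CCAAT (the CCAAT box) and GGGCGG (called a GC box here). The word CCGGAA is named an ETS-type core here. The word TATAAA resembles the promoter box of that name and is called the TATA-type word, and CACGTG is an E-box. The Kdm6a sequence is chrX:18162325-18162574 on the plus strand and the Prmt2 sequence chr10:76237866-76238115 on the minus strand, both GRCm38.p6, from RefSeq.
Kdm6a: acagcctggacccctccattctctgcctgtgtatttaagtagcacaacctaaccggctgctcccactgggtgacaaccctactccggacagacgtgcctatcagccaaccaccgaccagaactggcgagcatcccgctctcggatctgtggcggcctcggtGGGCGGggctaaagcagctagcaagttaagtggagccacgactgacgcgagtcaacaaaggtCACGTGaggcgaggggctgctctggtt
Prmt2: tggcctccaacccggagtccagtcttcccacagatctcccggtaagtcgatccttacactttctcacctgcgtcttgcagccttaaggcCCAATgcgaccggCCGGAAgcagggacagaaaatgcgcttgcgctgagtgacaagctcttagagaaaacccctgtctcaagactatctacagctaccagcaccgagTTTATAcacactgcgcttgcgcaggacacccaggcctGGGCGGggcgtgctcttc

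The Kdm6a stretch holds 15 CpG dinucleotides, 1 GC box and 1 E-box. The Prmt2 stretch holds 14 CpG dinucleotides and 1 match to each motif other than the E-box. RefSeq promoters were matched for 56 of 68 members, with the first start taken for each gene. Their median CpG count was 14.5, against 6 over 27025 promoters of all genes. The GC box was in 57.1% of the members' promoters and 33.0% of all, the CCAAT box in 44.6% and 34.5%, the ETS-type core in 23.2% and 12.3%, the E-box in 8.93% and 6.04%, and the TATA-type word in 7.14% and 13.0%. Among called members with a matched promoter, the GC box was in 10 of 16 that rose and 9 of 15 that fell, the CCAAT box in 7 and 7, the ETS-type core in 4 and 1, the E-box in 3 and 1, and the TATA-type word in 2 and 0. The motifs were chosen after the expression values were seen, and a match is a description of the letters only.

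Among acetyltransferases, the MYST enzymes Kat7 and Kat5 rose and the GNAT enzyme Kat2a fell. Of 8 tested, 2 rose, 2 fell and 4 were not called (50% called, against 59.1% of all tested genes). Their median log2 fold change was 0.01. Kat7 (Hbo1, which acetylates H3 and H4 at replication origins and genes; chromosome 11, 95274259 to 95310246, minus strand, GRCm38, 17 exonic blocks) measured 92.1, 89.4 and 88.2 FPKM in the Rbbp4F/F libraries and 167.7, 163.3 and 155.2 FPKM in the Rbbp4-/- libraries. Its mean rose from 89.9 ± 1.98 to 162.0 ± 6.31 FPKM (SD, n = 3 per group; 0.84 on the log2 scale, SE 0.07, limma adjusted p = 1.07e-04). The groups did not overlap, and Kat7 had the highest level of this class in both.

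Kat2a (Gcn5, the catalytic subunit of SAGA and ATAC; chromosome 11, 100704746 to 100712465, minus strand, 16 exonic blocks) held 80.6, 80.9 and 82.3 FPKM in controls and 51.0, 47.4 and 45.1 FPKM in the knockouts. It fell by 0.75 on the log2 scale (SE 0.07, limma adjusted p = 2.49e-04), again without overlap. Its paralog Kat2b stayed low, at 5.30 ± 0.131 and 5.71 ± 0.452 FPKM (0.09 on the log2 scale, limma adjusted p = 0.525). Kat5 (Tip60, of the TIP60-EP400 complex) measured 27.6, 24.4 and 28.1 FPKM, then 43.1, 37.0 and 39.3 FPKM, a rise of 0.56 (SE 0.10, limma adjusted p = 0.00244). Antisense exons of Rnaseh2c cover 12.1% of Kat5, and whether strand was used in counting is not given in the sources used here. Rnaseh2c itself was not called (log2 fold change −0.09).

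Kat8 (Mof, which acetylates H4 lysine 16) fell from 26.1 ± 2.72 to 19.1 ± 2.45 FPKM, or −0.44 on the log2 scale. Antisense exons of Prss8, which rose by 1.33 on the log2 scale, cover 4.22% of Kat8. The Kat8 call was lost with equal FPKM sums and on leaving out control replicate 1 or 3, or else knockout replicate 2 or 3. Kat6a, Kat6b and Kat14 were not called (0.25, −0.28 and −0.07), although the Kat6b groups did not overlap. With median-ratio or upper-quartile scaling Kat6b and Kat14 were called lower. Pseudogene copies of Kat2b and Kat6b are annotated, so reads of these genes could be divided among near-identical sequences. The summed level of the 8 acetyltransferases was 292, 279 and 288 FPKM with Rbbp4 and 337, 330 and 320 FPKM without it, and the groups did not overlap. The rise of the sum was that of Kat7: the other 7 summed to 196.6 ± 6.04 and 166.7 ± 2.35 FPKM.

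**Figure D2:**
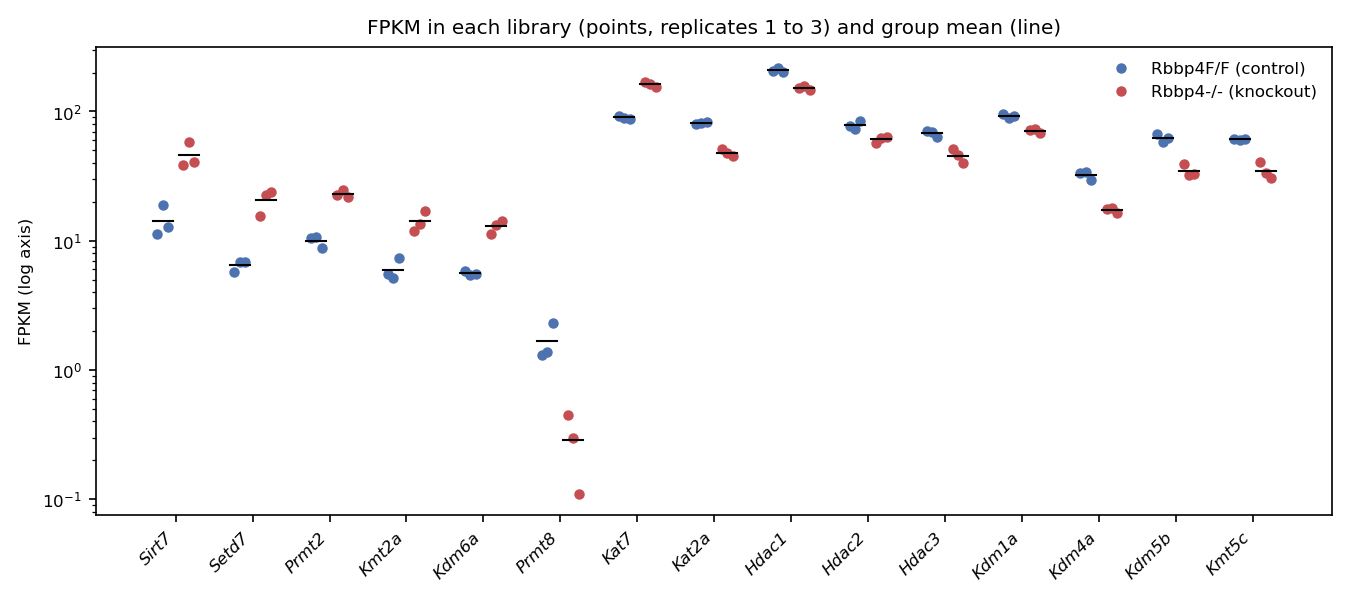
FPKM (log axis) in each library for the 6 members changed by at least 2-fold and for 9 further members of the 4 classes, with controls in blue, knockouts in red and a line at the group mean. The genes were picked from the called members, so that their groups lie apart follows from the choice (66.8% of all tested genes do not overlap). Kat7, for example, was at 88.2 to 92.1 and 155.2 to 167.7 FPKM.

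Among deacetylases, 3 of 4 class I enzymes fell (Hdac1, Hdac2 and Hdac3) and 3 of 7 sirtuins rose (Sirt1, Sirt2 and Sirt7), the Sirt1 and Sirt2 calls only under some scalings. That is 75% of class I lower, against 22.5% of all tested genes, and 42.9% of sirtuins higher, against 36.7%. The other class I enzyme and the other 4 sirtuins were not called, and no difference between the families was tested. Of 18, 17 were tested, 4 rose and 5 fell (52.9% called, against 59.1% of all tested genes), with a median log2 fold change of 0.08. Hdac1, the catalytic partner of Rbbp4 in NuRD and Sin3, was the most abundant deacetylase, at 206, 216 and 203 FPKM in the Rbbp4F/F libraries and 152, 156 and 147 FPKM in the Rbbp4-/- libraries. It fell by 0.45 on the log2 scale (SE 0.06, limma adjusted p = 0.00113). Hdac1 lies on the same chromosome as the targeted gene (chromosome 4, 129516104 to 129542713, minus strand, 12 exonic blocks, GRCm38). So do Kdm1a and Kdm4a, which also fell, and Kdm4c, which was not called.

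Its paralog Hdac2, found in the same complexes, measured 77.2, 73.1 and 83.9 FPKM in controls and 56.8, 61.9 and 64.0 FPKM in knockouts, a fall of 0.35 (SE 0.09, limma adjusted p = 0.0104) that was not called with equal FPKM sums. Hdac3, the deacetylase of the NCoR complex, fell from 67.9 ± 3.69 to 45.6 ± 5.59 FPKM (−0.57). The fourth class I enzyme, Hdac8, a cohesin deacetylase, was at 4.31 ± 0.234 and 5.08 ± 0.510 FPKM and was not called (0.19), although its groups did not overlap. The summed class I level was 358, 362 and 355 FPKM with Rbbp4 and 265, 270 and 256 FPKM without it, a ratio of 0.735.

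Class IIa enzymes, which shuttle between nucleus and cytoplasm and have little catalytic activity of their own, moved apart. Hdac5 rose from 57.9 ± 3.55 to 85.0 ± 19.4 FPKM (log2 fold change 0.53), with 107 FPKM in knockout replicate 1 and 76.7 and 71.2 FPKM in the others. Hdac4 fell from 8.58 ± 0.281 to 6.07 ± 0.329 FPKM (−0.44). Antisense exons of Gm26720 cover 22.4% of Hdac4, but that gene was listed at 0 in all 6 libraries. Hdac9 was below the filter, at 0.36 to 0.59 and 0.64 to 1.11 FPKM. Hdac7 and the class IIb genes Hdac6 and Hdac10 were not called (0.28, 0.08 and 0.33). Hdac11, the class IV enzyme, fell from 5.54 ± 0.824 to 2.84 ± 1.59 FPKM (−0.84), with 4.67 FPKM in knockout replicate 1 and 2.01 and 1.84 FPKM in the others. The Hdac5 call was lost with median-ratio or upper-quartile scaling, without the filter and without any one control replicate. The Hdac11 call was lost with equal FPKM sums, without the filter, without any one control replicate and without knockout replicate 2 or 3.

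Sirt7, a nucleolar sirtuin that deacetylates H3 lysine 18 (chromosome 11, 120618372 to 120625240, minus strand, 6 exonic blocks), had the largest log2 fold change of the tested members. It measured 11.3, 18.8 and 12.8 FPKM in the Rbbp4F/F libraries and 38.7, 58.0 and 41.0 FPKM in the Rbbp4-/- libraries. On the log2 scale it rose by 1.62 (SE 0.22, limma adjusted p = 8.92e-04). Replicate 2 was the highest library in both groups. Exons of Mafg and Mir6936 on the same strand cover 3.46% of Sirt7, and Mafg was not called (−0.13, limma adjusted p = 0.289). Sirt2, mainly a cytoplasmic deacetylase, held 20.1, 17.9 and 18.3 FPKM, then 29.0, 27.6 and 25.3 FPKM, a rise of 0.52 (SE 0.09, limma adjusted p = 0.00304). Sirt1 rose from 8.86 ± 1.10 to 13.5 ± 2.16 FPKM (0.55). Upper-quartile scaling ended the Sirt2 call, and the Sirt1 call was lost there, with median-ratio scaling and without control replicate 2. Sirt6, which acts on H3 lysine 9, was not called (−0.25), nor were the mitochondrial Sirt3, Sirt4 and Sirt5 (0.36, −0.45 and −0.48).

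Among demethylases, 3 of 4 KDM5 genes and the H3 lysine 27 enzyme Kdm6a rose, while both flavin-dependent enzymes and 2 of 3 tested KDM4 genes fell. The calls of Kdm5a, Kdm5c, Kdm5d and the flavin-dependent Kdm1b were lost in some alternatives. Across all tested genes 36.7% were called higher and 22.5% lower. Of 18, 17 were tested, 5 rose and 6 fell (64.7% called, against 59.1% of all tested genes), with a median of 0.04. Kdm6a (Utx, chromosome X, 18162575 to 18279936, plus strand, 30 exonic blocks) measured 5.80, 5.46 and 5.51 FPKM in the Rbbp4F/F libraries and 11.2, 13.3 and 14.2 FPKM in the Rbbp4-/- libraries. It rose by 1.07 on the log2 scale (SE 0.12, limma adjusted p = 4.28e-04). Kdm6b, the other KDM6 gene of this set, was at 6.44 ± 0.407 and 7.53 ± 0.821 FPKM and was not called (0.20, limma adjusted p = 0.210). Uty, the Y-linked homolog of Kdm6a, which the symbol rule does not take, rose from 1.963 ± 0.171 to 4.997 ± 0.699 FPKM.

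Members of the KDM5 family, which remove H3 lysine 4 methylation, went in opposite directions. Kdm5b (chromosome 1, 134560171 to 134635285, plus strand, 25 exonic blocks), the most abundant of the family in the controls, held 67.0, 57.7 and 62.9 FPKM in controls and 39.3, 32.0 and 32.7 FPKM in knockouts, a fall of 0.84 (SE 0.11, limma adjusted p = 6.76e-04). Kdm5a rose from 9.24 ± 1.80 to 15.7 ± 3.37 FPKM (0.70) and the X-linked Kdm5c from 43.4 ± 0.961 to 64.5 ± 9.04 FPKM (0.55). The Y-linked Kdm5d was detected in every library, at 3.22, 3.30 and 3.41 FPKM and at 7.14, 3.92 and 5.27 FPKM (0.55, limma adjusted p = 0.0438). Kdm5a lost its call with median-ratio or upper-quartile scaling and on leaving out control replicate 1 or 2, or else knockout replicate 2 or 3. Kdm5c lost it with upper-quartile scaling. Kdm5d lost it with either of these scalings, without the filter, with the replicate block, without any one control replicate and without knockout replicate 1 or 3.

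Kdm1a (Lsd1), the flavin-dependent H3 lysine 4 demethylase of CoREST and NuRD, was the most abundant demethylase. It measured 95.5, 89.0 and 91.7 FPKM in controls and 71.7, 73.5 and 68.0 FPKM in knockouts, a fall of 0.37 (SE 0.07, limma adjusted p = 0.00362). Its paralog Kdm1b fell from 4.46 ± 0.411 to 2.80 ± 0.422 FPKM (−0.53), a call lost with equal FPKM sums and without control replicate 2 or 3. Antisense exons of Dek cover 9.19% of Kdm1b.

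Kdm4a (chromosome 4, 118136957 to 118180043, minus strand, 24 exonic blocks), which removes methyl groups from H3 lysines 9 and 36, had the smallest p of the demethylases. It held 33.3, 34.3 and 29.6 FPKM in the Rbbp4F/F libraries and 17.6, 17.9 and 16.4 FPKM in the Rbbp4-/- libraries, a fall of 0.87 (SE 0.09, limma adjusted p = 3.43e-04). Kdm4b fell from 13.8 ± 1.88 to 7.86 ± 1.72 FPKM (−0.75), whereas Kdm4c was not called (25.6 ± 2.17 and 24.4 ± 0.984 FPKM, −0.07). Kdm4d, a small family member known from the testis, was below the filter. It was listed at 0.11, 0 and 22.5 FPKM in control replicates 1 to 3 and at 0.57, 0.21 and 0.42 FPKM in the knockout libraries, so a level stood out in control replicate 3 alone. Kdm4dl, an annotated pseudogene copy, lies on the same chromosome.

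Of the remaining demethylases, Kdm3b (H3 lysine 9) fell from 27.5 ± 0.633 to 21.6 ± 0.845 FPKM (−0.33), a call lost with equal FPKM sums. Antisense exons of Gm26538 cover 24.6% of Kdm3b, but that gene did not exceed 0.03 FPKM. Kdm3a, Kdm2a, Kdm2b and Kdm7a were not called (0.04, 0.22, −0.23 and 0.19). Kdm8 rose from 3.74 ± 0.291 to 5.39 ± 0.870 FPKM (0.42, limma adjusted p = 0.0414), and its call was lost with median-ratio or upper-quartile scaling, without the filter, with the replicate block, without any one control replicate and without knockout replicate 1 or 2. The summed demethylase level was 425, 412 and 437 FPKM with Rbbp4, the last with the high Kdm4d value in it, and 393, 376 and 365 FPKM without Rbbp4.

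Among methyltransferases, Setd7, Kmt2a and Prmt2 rose by at least 2-fold on the log2(FPKM + 1) scale. Kmt2e had a ratio of means of 2.30 but rose by 0.91 on that scale. Of 24 tested, 7 rose and 6 fell (54.2% called, against 59.1% of all tested genes), with a median of −0.02. These 3 are 13.0% of the 23 other than Prmt8, against 20.5% of all tested genes. Setd7, a monomethyltransferase of H3 lysine 4 and of several other proteins (chromosome 3, 51515319 to 51560879, minus strand, 9 exonic blocks), measured 5.69, 6.83 and 6.83 FPKM in the Rbbp4F/F libraries and 15.5, 22.5 and 23.9 FPKM in the Rbbp4-/- libraries. It rose by 1.52 on the log2 scale (SE 0.18, limma adjusted p = 4.69e-04).

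Among the 6 catalytic subunits of H3 lysine 4 (COMPASS) complexes, 1 rose and 1 fell (33.3% called, against 59.1% of all tested genes). Kmt2a (Mll1; chromosome 9, 44803355 to 44881296, minus strand, 37 exonic blocks) held 5.49, 5.13 and 7.33 FPKM in controls and 12, 13.6 and 17.1 FPKM in knockouts, a rise of 1.12 (SE 0.17, limma adjusted p = 0.00159). Its close relative Kmt2b did not pass the test, at 32.9 ± 4.45 and 32.7 ± 6.23 FPKM. Setd1a fell from 26.97 ± 2.67 to 20.8 ± 0.701 FPKM (−0.35), a call lost with equal FPKM sums and without control replicate 2. Exons of Gm49388 on the same strand cover 51.9% of Setd1a, and reads there cannot be told apart. Kmt2c, Kmt2d and Setd1b were not called (0.15, −0.11 and −0.05). The summed level of the 6 was 83.3 to 96.5 FPKM with Rbbp4 and 86.3 to 92.6 FPKM without it, so the groups overlapped.

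Setd2, which trimethylates H3 lysine 36 on transcribed genes, rose from 18.6 ± 0.151 to 36.1 ± 9.62 FPKM (0.88, limma adjusted p = 0.00637). Its knockout values were 25.6, 38.4 and 44.4 FPKM, all above the control range of 18.5 to 18.8 FPKM. The H4 lysine 20 enzymes went apart. Kmt5c (Suv420h2; chromosome 7, 4740115 to 4747514, plus strand, 7 exonic blocks) fell from 61.0 ± 0.476 to 34.9 ± 5.09 FPKM (−0.80), while its paralog Kmt5b (Suv420h1) rose from 6.23 ± 0.443 to 11.8 ± 3.42 FPKM (0.79). The Kmt5b call was lost with upper-quartile scaling and on leaving out control replicate 1 or 3, or else knockout replicate 2. Antisense exons of Gm16066, which rose by 2.63 on the log2 scale, cover 6.28% of Kmt5b. Kmt5a, the H4 lysine 20 monomethyltransferase, was not called (0.21), although its groups did not overlap.

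Kmt2e, a catalytically doubtful relative of Kmt2a, rose from 2.27 ± 0.661 to 5.21 ± 1.82 FPKM (0.91), a call lost without control replicate 1 or 2. Antisense exons of Srpk2 cover 9.31% of Kmt2e, and Srpk2 fell by 0.46 on the log2 scale. Setd5 fell from 52.0 ± 2.31 to 35.997 ± 2.71 FPKM (−0.52). Setd3, Setd4 and Setd6 were not called (−0.06, 0.26 and −0.27), although the Setd6 groups did not overlap. Setd6 was called lower with median-ratio or upper-quartile scaling and without knockout replicate 1.

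Of the 8 arginine methyltransferases, 2 rose and 3 fell (62.5% called, against 59.1% of all tested genes). Prmt2 (chromosome 10, 76207222 to 76237865, minus strand, 13 exonic blocks) measured 10.5, 10.7 and 8.86 FPKM in controls and 22.4, 24.5 and 21.8 FPKM in knockouts, a rise of 1.12 (SE 0.11, limma adjusted p = 2.28e-04). Prmt6, which methylates H3 arginine 2, held 12.5, 14.5 and 11.98 FPKM, then 26.8, 24.4 and 24.7 FPKM, a rise of 0.91 (SE 0.10, limma adjusted p = 4.13e-04). Antisense exons of C130013H08Rik cover 23.45% of Prmt6, and that gene measured 0.13 to 0.51 FPKM in controls and 0.66 to 1.12 FPKM in knockouts.

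Prmt8, a membrane-bound paralog of Prmt1 known from the brain (chromosome 6, 127689011 to 127769472, minus strand, 10 exonic blocks), was at 1.31, 1.38 and 2.32 FPKM in controls and 0.45, 0.30 and 0.11 FPKM in knockouts. It passed the filter through the control libraries alone, so it had to differ, and its values (−1.04 on the log2 scale) are a description. Antisense exons of Gm42738, listed at 0 in all 6 libraries, cover 8.55% of it.

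Prmt1, the main asymmetric arginine methyltransferase and by level the highest member, measured 815, 854 and 737 FPKM in the Rbbp4F/F libraries and 817, 653 and 560 FPKM in the Rbbp4-/- libraries. The groups overlapped and the difference was not called (−0.26, limma adjusted p = 0.158). Prmt5, the main symmetric enzyme, held 125, 124 and 125 FPKM, then 197, 140 and 143 FPKM, and just missed the threshold (0.33, limma adjusted p = 0.0682) although the groups did not overlap. Prmt3 fell from 42.2 ± 2.20 to 33.1 ± 1.25 FPKM (−0.34, lost with equal FPKM sums) and Prmt7 from 54.4 ± 3.33 to 35.2 ± 8.92 FPKM (−0.64, lost without control replicate 3 or knockout replicate 2). Prmt9 was not called (−0.02).

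Summed over a class, levels differed by ratios of means (knockout over control) from 0.890 for demethylases to 1.15 for acetyltransferases. With median-ratio scaling these became 0.778 and 1.003, and with equal FPKM sums 0.993 and 1.28. The ratio of methyltransferases without Prmt1 was 1.05, 0.921 and 1.17 in the same 3 settings. The sums are a level in FPKM and were not tested. Deacetylases summed to 591, 594 and 574 FPKM with Rbbp4 and to 592, 554 and 515 FPKM without it, and methyltransferases without Prmt1 to 632, 640 and 644 FPKM and to 701, 645 and 671 FPKM. As deposited, all members without Prmt1 summed to 1936 ± 10.2 and 1933 ± 79.5 FPKM. The ratio of this sum was 0.873 with median-ratio scaling, 0.830 with upper-quartile scaling and 1.11 with equal FPKM sums.

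**Figure D3:**
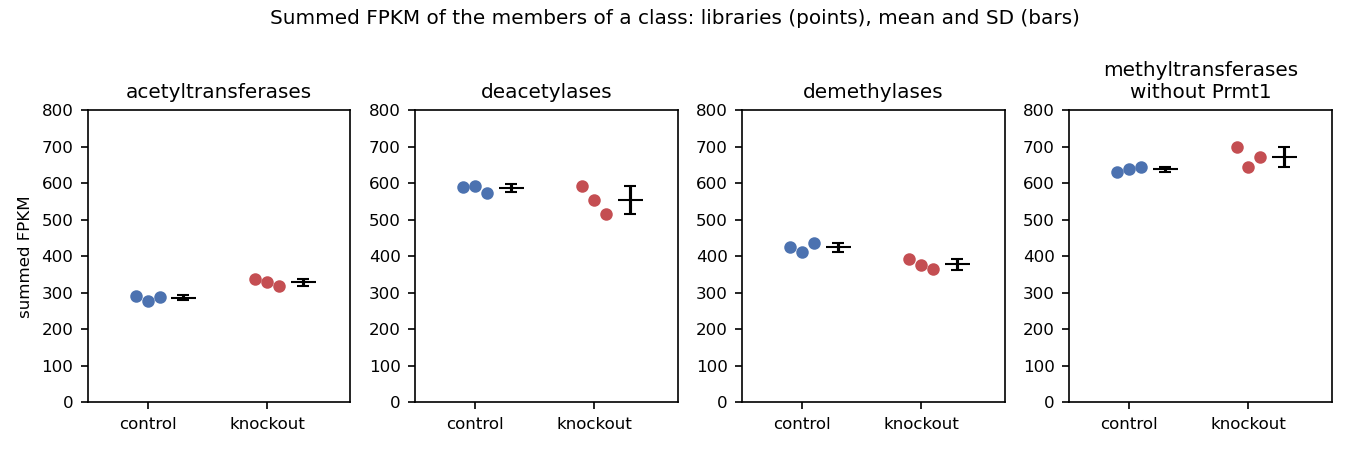
Summed FPKM (y axis from 0) of the members of each class in the 3 control and 3 knockout libraries (points), with mean and SD (bars); Prmt1 is left out of the methyltransferases. As deposited, acetyltransferases were at 320 to 337 FPKM in the knockouts against 279 to 292 (the rise is that of Kat7) and demethylases at 365 to 393 against 412 to 437; median-ratio scaling takes the first ratio to 1.003 and equal FPKM sums the second to 0.993.

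Ratios between paralogs or related enzymes of a library do not depend on its scaling, apart from the pseudocount. They were compared for 16 pairs as log2 ratios of (FPKM + 1), with a two-sided exact permutation test. With 3 against 3 libraries the smallest possible p is 0.1, so no pair could pass 0.05, and 11 pairs reached it (0.145 after Benjamini-Hochberg adjustment over the 16). That is 68.8% of pairs without overlap, beside 66.8% of all tested genes by their own level. The measures are unlike, because a ratio cancels the scaling of a library and the level of a gene does not. The share over other gene pairs was not computed. In 7 of the 11 pairs the groups did not overlap with the first gene relatively higher in the knockout, and in 4 with the first relatively lower.

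The widest differences were in Sirt6/Sirt7, Kmt5b/Kmt5c and Kdm5a/Kdm5b. The Sirt6/Sirt7 ratio of means went from 3.08 to 0.807, and Sirt7 was above Sirt6 in knockout replicates 2 and 3 but not in replicate 1 (38.7 and 44.6 FPKM). Kmt5b was at 0.102 of the level of Kmt5c in controls and 0.339 in knockouts, a log2 difference of 1.59. Kdm5a stood at 0.148 of Kdm5b and then 0.452 (1.53). The order of levels turned also in Kdm6a/Kdm6b, from 0.868 to 1.71, and in Kdm4a/Kdm4c, from 1.264 to 0.709. By contrast the Hdac1/Hdac2 ratio was 2.67 in controls and 2.50 in knockouts, with overlapping libraries and a log2 difference of −0.10 (exact permutation p = 0.5), which ran from −0.17 to −0.03 when each library was left out.

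**Figure D4:**
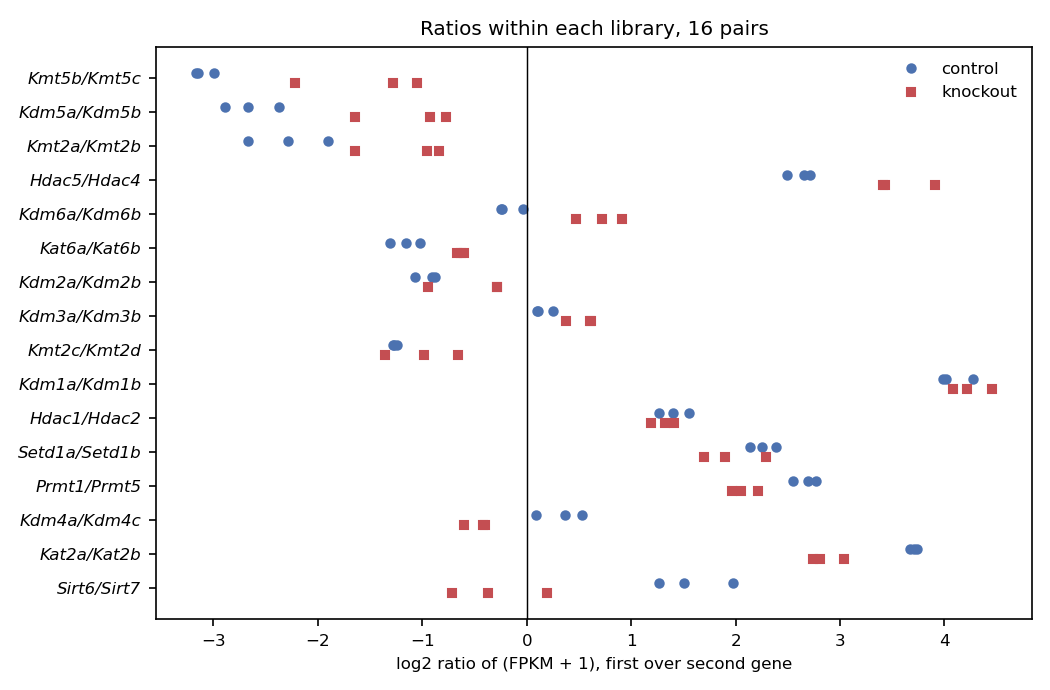
Log2 ratio of (FPKM + 1) of the first over the second gene (x axis) in each control (blue circles) and knockout (red squares) library, for 16 pairs ordered by the difference between groups. Points right of 0 have more of the first gene. Sirt6/Sirt7 moves farthest left (difference −1.87) and Kmt5b/Kmt5c farthest right (1.59), while the Hdac1/Hdac2 points overlap.

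Enzymes of the same chemistry with other symbols were taken from a separate list. Of 9 further acetyltransferases 3 rose and 0 fell in limma (33.3% called, against 59.1% of all tested genes). The coactivator acetyltransferase Ep300 rose from 25.9 ± 1.496 to 47.0 ± 3.18 FPKM (0.84), Ncoa1 from 5.85 ± 1.22 to 10.4 ± 1.60 FPKM (0.73), and Crebbp, the paralog of Ep300, from 5.72 ± 0.903 to 8.26 ± 1.21 FPKM (0.46). The Crebbp call was lost with median-ratio or upper-quartile scaling, without the filter, with the replicate block, and on leaving out control replicate 1 or 3, or else knockout replicate 2 or 3. With median-ratio scaling 2 of these 9 were higher and 1 lower, and with upper-quartile scaling 2 and 2. In these settings 3838 of all tested genes were higher and 3992 lower, then 3453 and 4402.

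Of 8 further demethylases and related hydroxylases, 5 rose and 1 fell (75% called, against 59.1% of all tested genes). Jmjd6 rose from 62.6 ± 2.35 to 115.1 ± 11.5 FPKM (0.86) and Phf2, an H3 lysine 9 demethylase, from 3.17 ± 0.454 to 8.08 ± 1.10 FPKM (1.12). Of 19 further methyltransferases, 8 rose and 6 fell (73.7% called, against the same 59.1%). Prdm2 rose from 20.3 ± 1.22 to 37.7 ± 0.906 FPKM (0.86) and Dot1l, the H3 lysine 79 enzyme, from 29.9 ± 1.51 to 45.5 ± 2.32 FPKM (0.59). Ezh2, the H3 lysine 27 methyltransferase of Polycomb repressive complex 2, in which Rbbp4 is a subunit, fell from 62.2 ± 4.003 to 37.7 ± 1.31 FPKM (−0.71). The larger side of the methyltransferases turned with median-ratio scaling (5 higher, 7 lower) and upper-quartile scaling (5 and 8). Over all tested genes it turned too, with 3838 higher and 3992 lower, then 3453 and 4402.

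Subunits that partner the members moved both ways. The share called was 66.7% of the COMPASS list and 55% of the MYST list. Of all tested genes 59.1% were called, 36.7% higher and 22.5% lower. In the COMPASS list 4 of 12 rose and 4 fell: Dpy30 fell from 197.7 ± 9.53 to 93.4 ± 8.34 FPKM (−1.08) and Wdr5 from 103.3 ± 0.521 to 56.7 ± 4.80 FPKM (−0.86), while Ash2l rose from 173.0 ± 0.882 to 236.3 ± 7.28 FPKM (0.45, lost with upper-quartile scaling). These are core subunits shared by the COMPASS complexes. Among 20 subunits of MYST acetyltransferase complexes 10 rose and 1 fell. They included Epc1 (1.27), Jade1, a partner of Kat7, from 43.4 ± 1.10 to 88.5 ± 14.99 FPKM (1.00), and Kansl3, a partner of Kat8 (1.05). With upper-quartile scaling 7 were higher and 4 lower. In that setting 3453 of all tested genes were higher and 4402 lower.

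Of 13 SAGA and ATAC subunits, the partners of Kat2a, 6 rose and 3 fell (69.2% called, against 59.1% of all tested genes). Supt20 (1.00), Tada1 (1.06) and Zzz3 (1.23) had the smallest p. With upper-quartile scaling the larger side turned, with 4 higher and 5 lower. It turned over all tested genes too, to 3453 higher and 4402 lower. Among 11 partners of Kdm1a and Hdac3 in the CoREST and NCoR complexes, 3 rose and 4 fell (63.6% called, against the same 59.1%). Rcor2, a CoREST scaffold abundant in stem cells, measured 58.9, 59.7 and 63.2 FPKM in controls and 18.7, 11.2 and 13.2 FPKM in knockouts, a fall of 2.03. The related Rcor1 and Rcor3, singled out after their values were seen, rose by 0.79 and 1.10.

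Knockout replicate 1, the knockout library with the most Rbbp4 transcript, lay apart from the other knockout libraries in some members. Examples, chosen after the values were seen, were Prmt5 (197 FPKM against 140 and 143), Sirt5 (14.1 against 7 and 6.18), Kmt5b (7.90 against 13.3 and 14.3) and Hdac11. Without this library 21 members were higher and 24 lower of 66 tested. Over all tested genes calls also grew, from 4978 higher and 3051 lower of 13579 to 5592 and 3587 of 14030. Sirt5 and Prmt5 were then both called.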

How the data were processed

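RNA-seq values of 3 Rbbp4F/F and 3 Rbbp4-/- libraries were analysed. Per the submitters' processing notes, tools included RSEM, HISAT2 2.1.0, DESeq 1.26.0 and FastQC, on GRCm38.p6, with no role stated. For the annotation release and the strand setting, the sources used here say nothing. The authors deposited a value per gene, taken as FPKM from the values: they are not whole and their library sums differ. FPKM is relative to the total, so changes of abundant transcripts shift all others. Low values of single-transcript genes, on a length shortened by 265 to 275 bases, fell on whole steps (within 0.15) in 86.7% to 90.0% of cases, which gave the depth. Per file, 2 rows without a gene were dropped.

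Genes with at least 1 FPKM in 3 libraries were tested on the log2(FPKM + 1) scale by limma 3.58.1, run under R 4.3.3 (group only, mean trend, two-sided, Benjamini-Hochberg over all 13579 genes, threshold 0.05). Fold changes are on that log2 scale and understate low genes. The code was tested on simulated data. Members, lists and pairs were chosen with earlier results of these data known. Values per library were given for called members changed 2-fold, the 3 smallest p and the highest mean of each class, Hdac1, Hdac2, Kdm1a and Kdm5d, and other lists gave up to 3 genes by p; further members are named with means. Some genes that this rule takes are not reported here.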

Additional observations from a re-analysis of the deposited data

How the results depend on the processing

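No member changed direction while called in any alternative. Called members higher and lower were 18 and 19. With upper-quartile scaling they were 10 and 29, and with equal FPKM sums the lower count was 12. The counts over all tested genes moved the same way in these settings. By class, with median-ratio scaling 4 acetyltransferases were lower (2 as reported), 2 deacetylases higher (4) and 2 demethylases higher (5). With upper-quartile scaling 4 acetyltransferases and 10 methyltransferases (6) were lower, and 1 deacetylase and 1 demethylase were higher. With equal FPKM sums 1 acetyltransferase and 3 deacetylases (5) were lower. The number of demethylases that rose was 3 without a filter, with a filter of 5 FPKM and with the replicate block. Leaving out each library gave 12 to 21 members higher and 15 to 24 lower. Over all tested genes the counts ran from 4231 to 5592 higher and from 2436 to 3587 lower. By class the ranges were 2 to 3 and 1 to 2 for acetyltransferases, 2 to 5 and 4 to 7 for deacetylases, 2 to 4 and 5 to 7 for demethylases, and 5 to 10 and 5 to 8 for methyltransferases. The count of lower acetyltransferases was 1 on leaving out control replicate 1 or 3, or else knockout replicate 2 or 3; risen deacetylases were 2 without control replicate 2; risen demethylases were 2 or 3 without each library other than knockout replicate 1, where 10 further members were called and 2 lost. The cause of these moves was not tested. A pseudocount of 0.1 changed no member's call. The replicate number did not pair the libraries: same-numbered libraries' deviations from their group means correlated at −0.00, −0.01 and 0.05. With the replicate block 16 members were higher and 19 lower, and the Kdm5d and Kdm8 calls were lost.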
